A study of Mus musculus with 6 samples.

Results

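This account covers the genes that license and copy DNA and drive the cell cycle, in FLK1+ mesodermal cells with and without SCL (TAL1), a transcription factor required for blood formation. The genes were taken by symbol: the MCM, ORC and GINS families, CDC6, CDT1 and CDC45, the clamp PCNA and its loader RFC, the A, B, D and E cyclins with their kinases and inhibitors, the E2F and RB families, the CDC25, PLK and Aurora families, and a few mitotic and proliferation markers. Of the 14005 genes in the deposited table, 69 matched. The symbols Ccna1, Ccnb3, Cdkn2a, Cdkn2b, Cdkn2c and Cdkn2d also fall under the rule and were not analysed here. Of the 69 genes, 3 lie on chromosome 1 and 4 on chromosome 11, and these are described separately.

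RNA came from embryoid bodies (EBs) at day 3.5 of differentiation. The WT group was the J1 mouse embryonic stem (ES) cell line and the Scl-/- group an ES cell line with both Scl alleles disrupted, and FLK1+ cells were isolated on magnetic columns. Independent differentiations gave 3 libraries of each genotype, numbered 1 to 3, and values below are in that order. The strain was given as C57Bl/6 X Sv129 in some labels, and with other Sv numbers in the rest. Each genotype was 1 cell line, so an effect of the genotype and a difference between the lines cannot be told apart. Expression is given in CPM, the reads of a gene scaled to a common library total. Tal1, which encodes SCL, had 303, 182 and 306 CPM in the WT and 9.35, 5.68 and 5.87 CPM in the Scl-/- libraries, so the targeted gene was low in every library labelled Scl-/-. Kdr, which encodes FLK1, had 868, 832 and 867 CPM in the WT and 724, 777 and 810 CPM in the Scl-/- libraries. With it, the 6 FLK1+ mesoderm markers summed to 1519.2 to 1636.4 CPM in WT and 1557.7 to 2005.5 CPM in Scl-/- libraries. Kdr held the largest share of that sum, and the other markers moved apart. In the limma fit with the replicate number as a block (below), Etv2, Mesp1, T and Pdgfra rose in Scl-/- cells by 0.78, 1.41, 0.74 and 0.88 on the log2 scale (adjusted p = 1.3e-04, 1.6e-04, 1.8e-04 and 0.00189), and Aplnr fell by 0.54 (adjusted p = 0.0191). Without the block, Etv2 alone of these was called (adjusted p = 0.0175). The libraries held 38623641 to 47621120 reads on the listed genes, at which 3 reads equal 0.0615 to 0.0784 CPM, a floor that reflects counting error alone. The 8 blood and endothelial marker genes summed to 198 to 411 CPM in WT and 27.3 to 61.1 CPM in Scl-/- libraries, with Hbb-bh1 at 0 in all Scl-/- libraries. The 5 pluripotency and epiblast markers in the table summed to 87.6 to 155 CPM in WT and 90.1 to 235 CPM in Scl-/- libraries. Pou5f1 held most of that sum. With the block, Pou5f1, Nanog and Fgf5 rose by 0.56, 0.82 and 1.21 (adjusted p = 0.0222, 0.0177 and 0.0266). Sox2 and Zfp42 had -0.04 and -0.14 (adjusted p = 0.958 and 0.677), and without the block none of the 5 had an adjusted p under 0.05. The 2 endoderm markers in the table went opposite ways. Sox17, which endothelial cells also express, had 14.7, 6.53 and 22.0 CPM in WT and 2.95, 0.967 and 5.56 CPM in Scl-/- libraries, and Cer1 had 0.151, 1.80 and 0.389 CPM in WT and 0.369, 2.15 and 2.88 CPM in Scl-/- libraries. The 2 neural markers summed to 19.5 to 23.2 CPM in WT and 17.6 to 18.9 CPM in Scl-/- libraries, with Pax6 at 12.7 to 15.5 CPM over all libraries. In bulk RNA, fewer cells of a type and less RNA per cell cannot be told apart.

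Before S phase, the origin recognition complex, CDC6 and CDT1 load the MCM2 to MCM7 helicase onto DNA, and CDC45 and GINS join it when origins fire. Cyclin-dependent kinases phosphorylate RB proteins, which then release E2F factors to switch on S-phase genes, while another gene programme with CCAAT boxes and cell cycle homology region (CHR) elements in its promoters peaks in mitosis. FLK1+ cells of the EB correspond to mesoderm at gastrulation, a stage at which cells divide fast.

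Promoter windows from RefSeq (GRCm38.p6, 250 bases before to 50 after the start) were found for 55 of the 69 genes. E2F letters (TTTCCCGC, TTTCGCGC, TTTGCCGC or TTTGGCGC, either strand, overlaps allowed) were in the windows of 18 genes, or 32.7%, against 4.86% of 9508 genes of the table and 2.60% of 27025 genes of the reference. CCAAT, on either strand, was in those of 36, or 65.5%, against 43.1% and 41.1%. The CHR letters TTTGAA or TTTAAA, on either strand, were in those of 24, or 43.6%, against 21.8% and 30.6%. By role, E2F letters were in the windows of 5 of 8 MCM family genes and 4 of 8 licensing genes, and of 0 of 9 genes of the mitotic kinase and checkpoint group, of which 7 held the CHR letters. These are matches of letters and not mapped sites. The 18 genes with E2F letters had a median log2 fold change, Scl-/- minus WT, of -0.06, and the 37 without them -0.02. To show how these windows differ, the 120 bases before the start are printed for the 2 MCM genes on chromosome 1, for Birc5 and for the first of 2 windows of E2f2, 5′ to 3′ along the gene, with any match to the E2F, CCAAT or CHR letters on either strand in capitals. Mcm6 (chr1:128359706-128359825, minus strand) held 3 E2F matches before its start, of which a pair overlaps. Mcm3 (chr1:20820313-20820432, minus strand) held 3 CCAAT matches, and its 2 E2F matches lay after the start. Birc5 (chr11:117849117-117849236, plus strand) held none in this stretch, and E2f2 (chr4:136172154-136172273, plus strand) held 1 CCAAT match. The E2F match of this E2f2 window lay after the start.
Mcm6: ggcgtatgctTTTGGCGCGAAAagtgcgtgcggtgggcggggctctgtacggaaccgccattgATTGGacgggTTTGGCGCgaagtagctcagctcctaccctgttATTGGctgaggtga
Mcm3: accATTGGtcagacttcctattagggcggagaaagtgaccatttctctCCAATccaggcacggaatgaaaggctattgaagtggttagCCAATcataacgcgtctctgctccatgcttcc
Birc5: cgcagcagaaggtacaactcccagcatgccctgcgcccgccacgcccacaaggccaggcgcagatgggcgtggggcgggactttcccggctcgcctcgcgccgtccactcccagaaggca
E2f2: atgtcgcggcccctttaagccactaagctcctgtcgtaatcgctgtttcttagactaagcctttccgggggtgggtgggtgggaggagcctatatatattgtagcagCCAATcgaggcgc

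The replication and cell cycle genes differed little between WT and Scl-/- cells, with few exceptions. All 69 passed the filter on low values (at least 0.5 CPM in at least 3 libraries). Summed over the 69 genes, the libraries held 10113.4, 10461.9 and 10993.1 CPM in the WT libraries and 9827.6, 10383.8 and 10500.5 CPM in the Scl-/- libraries, and the groups overlapped. The median log2 fold change, Scl-/- minus WT, was -0.022 with an interquartile range of -0.11 to 0.074, and over all 13991 tested genes it was 0.009 with a range of -0.15 to 0.17. Of the 69 genes, 33 were higher and 36 lower in Scl-/- cells. Within the same-numbered pairs of libraries, the median difference was 0.002, 0.003 and -0.056 for replicates 1, 2 and 3.

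A gene was called where its adjusted p was under 0.05 and its log2 fold change passed 0.48 in either direction, with limma on log2(CPM + 0.5) and Benjamini-Hochberg adjustment over all tested genes. Of the 69 genes, 1 was called, Birc5, beside 2.36% of all tested genes. Same-numbered libraries deviated together, and with that number fitted as a block 3 of the 69 genes were called (12.6% of all tested genes). Birc5 was the only 1 called higher (6.04% of all tested genes), and E2f2 and Ccnd2 were called lower (6.60%). The 95% interval of the log2 fold change with the block lay wholly within -0.48 to 0.48 for 57 of the 69 genes, or 82.6%, against 62.4% of all tested genes. That share depends on precision as well as on change. The 69 genes had a median interval half-width of 0.16, against 0.21 over all tested genes, and a median level of 94.5 CPM, against 31.5 CPM. The 3 libraries of each group did not overlap for 8 genes, or 11.6%, against 21.6% of all tested genes, higher for Birc5 and Cdc6 and lower for Gins2, E2f1, E2f2, Ccna2, Mcm6 and Orc2. With no threshold on the fold, 4 genes had an adjusted p under 0.05 with the block and were higher (12.0% of all tested genes), and 10 were lower (12.2%). The higher genes were E2f4, Cdc6, Aurkb and Birc5. The lower ones were Cdkn1b, Gins2, E2f1, E2f2, Rb1, Ccnd2, Mcm3, Mcm6, Orc2 and Mki67.

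**Figure D1:**
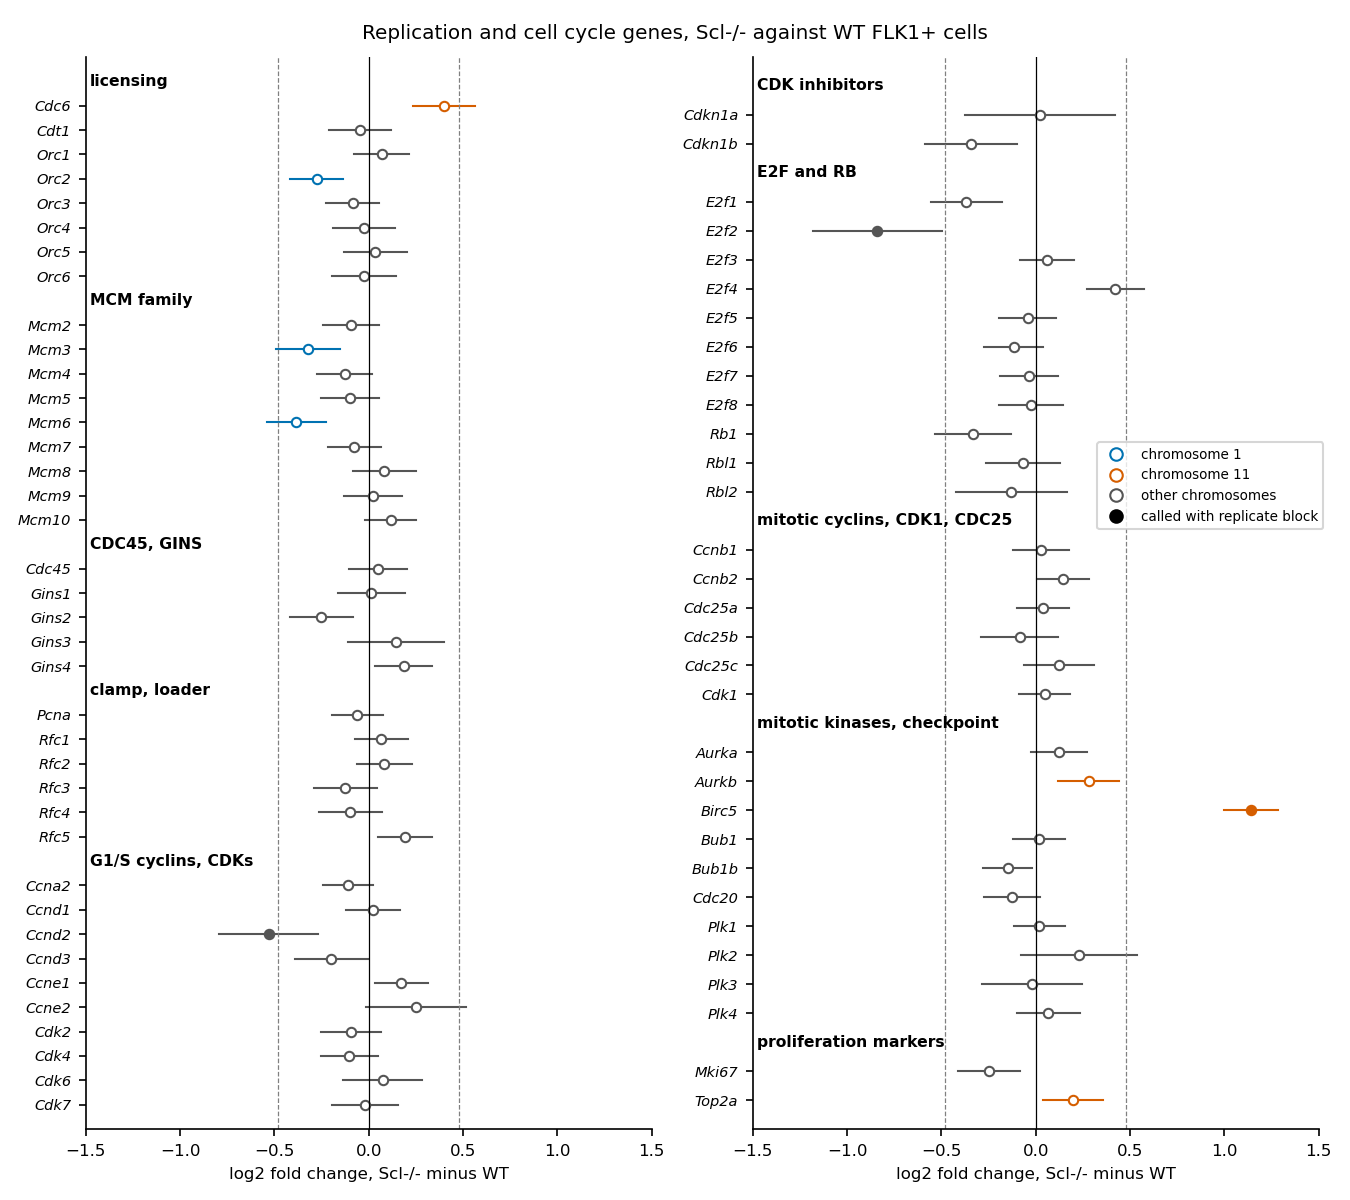
Log2 fold change (x axis, Scl-/- minus WT, from log2(CPM + 0.5)) of each of the 69 genes, grouped by role, with the 95% interval from the fit with the replicate block (line), n = 3 libraries a group; blue, chromosome 1; orange, chromosome 11; grey, other chromosomes; filled, called with the block; dashed lines at -0.48 and 0.48. The intervals of 57 genes lie between the dashed lines, and the filled points are Birc5 at 1.14, E2f2 at -0.84 and Ccnd2 at -0.53.

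Among the 8 licensing genes, 0 were called, and their median log2 fold change was -0.026. Orc4, a subunit of the origin recognition complex, had the smallest difference of the group, with 50.1, 48.3 and 41.5 CPM in WT and 50.6, 45.0 and 41.8 CPM in the Scl-/- libraries. Its log2 fold change was -0.02, and the 95% interval with the block ran from -0.19 to 0.14. The largest difference was that of Cdc6, on chromosome 11, which is described below with its chromosome. Levels per kb of exon use all annotated exons of a gene merged over its transcripts, not the transcripts present in these cells. An order between genes depends on that annotation, and the SD between libraries does not cover it. Per kb of exon, Cdt1 and Orc6 stood at the top of the group in WT cells, at 87.6 ± 13.6 and 75.2 ± 6.25 CPM per kb (SD, n = 3), which did not differ beyond their spread, and Orc4 at the bottom at 6.25 ± 0.61 CPM per kb (SD, n = 3).

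All 6 genes of the MCM2 to MCM7 helicase had lower means in Scl-/- cells. Their log2 fold changes had a median of -0.11 and a range of -0.38 to -0.08, and 0 of the 6 were called. The largest differences were those of Mcm6 and Mcm3, both on chromosome 1. The other 4, on chromosomes other than 1 and 11, had adjusted p-values of 0.189 to 0.421 with the block. Summed, MCM2 to MCM7 had 2479.8, 2505.7 and 3087.1 CPM in the WT libraries and 2069.8, 2373.0 and 2688.8 CPM in the Scl-/- libraries. The sum was lower in Scl-/- cells in each same-numbered pair, but the groups overlapped. The median difference of the 6 genes was -0.18, 0.005 and -0.20 on the log2 scale in the pairs numbered 1, 2 and 3. In the pair numbered 2, Mcm2, Mcm5 and Mcm7 were higher in Scl-/- cells, by 0.03, 0.04 and 0.02, and Mcm4 differed by -0.01, while Mcm3 and Mcm6 on chromosome 1 were lower, by -0.24 and -0.33. Per kb of exon in WT cells, Mcm3 and Mcm5 were highest, at 168 ± 27.1 and 164 ± 22.2 CPM per kb (SD, n = 3), and Mcm7 was lowest at 83.1 ± 8.52 CPM per kb (SD, n = 3). The exon lengths used were 2.99 kb for Mcm3 and 4.43 kb for Mcm7. On such lengths, the highest level of these helicase subunits was 2.02 times the lowest in WT cells and 1.98 times in Scl-/- cells. Mcm8, Mcm9 and Mcm10, which are not part of the hexamer, were at 9.29 to 18.5 CPM per kb in WT cells. Mcm9, which acts with MCM8 in recombination, had the smallest difference of the family, with 62.6, 72.5 and 57.6 CPM in WT and 66.6, 74.3 and 55.4 CPM in the Scl-/- libraries, and a log2 fold change of 0.02.

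The CDC45 and GINS genes and the sliding clamp and its loader gave 0 calls among 5 and 6 genes. Gins2, a subunit of the GINS complex, had 151, 137 and 175 CPM in WT and 130, 127 and 131 CPM in the Scl-/- libraries. All WT libraries were above all Scl-/- libraries, and its log2 fold change of -0.25 had an adjusted p of 0.285 without and 0.0395 with the block. Gins1 had the smallest difference of the group, at 40.5, 44.7 and 34.4 CPM in WT and 37.7, 46.6 and 36.4 CPM in the Scl-/- libraries, a log2 fold change of 0.01. Pcna, the sliding clamp that holds polymerases on DNA, had 243, 254 and 303 CPM in WT and 230, 258 and 278 CPM in the Scl-/- libraries. Its groups overlapped, with a log2 fold change of -0.06 and a 95% interval with the block of -0.20 to 0.08. Rfc5, a subunit of the clamp loader, had the largest difference of its group, with 81.1, 79.4 and 91.3 CPM in WT and 90.6, 93.9 and 103 CPM in the Scl-/- libraries. Its groups overlapped, and its log2 fold change was 0.19 (adjusted p = 0.396 without and 0.0558 with the block).

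Cyclin D2 fell in Scl-/- cells in the fit with the block, and cyclins D1 and D3 were not called. Ccnd2, which activates CDK4 and CDK6 in G1, had 388, 449 and 328 CPM in the WT libraries and 350, 255 and 212 CPM in the Scl-/- libraries. Each Scl-/- library was below the WT library of the same number, but Scl-/- replicate 1 was above WT replicate 3, so the groups overlapped. The differences within pairs were -0.15, -0.81 and -0.63, and the log2 fold change was -0.53 (standard error 0.20 without and 0.11 with the block, adjusted p = 0.22 without and 0.0133 with it). The call with the block was lost without the pair numbered 2 (-0.39, adjusted p = 0.0984 with limma), without the pair numbered 3 (-0.48, adjusted p = 0.0943), and when the intensity trend was dropped. Ccnd1, its nearest relative, and Ccnd3 were chosen after their values were seen. Ccnd1 had 381, 385 and 387 CPM in WT and 416, 382 and 375 CPM in the Scl-/- libraries, a log2 fold change of 0.02. Ccnd3 differed by 0.04, -0.25 and -0.38 within pairs, with a log2 fold change of -0.20 (adjusted p = 0.631 without and 0.127 with the block). Per kb of exon, Ccnd1 was at 100 ± 0.876 CPM per kb in WT and 102 ± 5.74 CPM per kb in Scl-/- cells (SD, n = 3), and Ccnd2 at 68.1 ± 10.6 and 47.8 ± 12.3 CPM per kb (SD, n = 3). Cdk7, the kinase of the CDK-activating complex, had the smallest difference of the group, with a log2 fold change of -0.02.

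Of the 2 CDK inhibitors that the rule took from the table, 0 were called. A further CDK inhibitor, Cdkn1c, lies outside the rule and is described below. Cdkn1b, which encodes p27 and blocks cyclin E with CDK2, had 48.3, 58.2 and 42.0 CPM in WT and 47.3, 40.4 and 29.9 CPM in the Scl-/- libraries. Replicate 1 differed little between genotypes and replicates 2 and 3 were lower in Scl-/- cells, and the log2 fold change was -0.34 (adjusted p = 0.434 without and 0.0487 with the block). Without the pair numbered 1, Cdkn1b was called in the fit with the block (-0.50, adjusted p = 0.00172 with limma). Without the pair numbered 2 or 3 it was -0.26 or -0.27 (adjusted p = 0.302 and 0.221). With chromosome centring and the block its adjusted p was 0.0596. Cdkn1a, which encodes the p53 target p21, had 36.7, 30.8 and 43.6 CPM in WT and 57.2, 23.9 and 37.5 CPM in the Scl-/- libraries. The difference was 0.64 in the pair numbered 1 and -0.36 and -0.21 in the others, with a log2 fold change of 0.02 and a wide 95% interval with the block, from -0.38 to 0.42.

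Within the E2F and RB families, E2f2 fell in the fit with the block and the other 10 genes were not called. E2f2, an activator that drives S-phase genes, had 12.0, 9.30 and 10.3 CPM in the WT libraries and 8.59, 4.21 and 4.88 CPM in the Scl-/- libraries. All WT libraries were above all Scl-/- libraries, and Scl-/- replicate 1 lay nearest to WT. The log2 fold change was -0.84 (standard error 0.26 without and 0.15 with the block, adjusted p = 0.155 without and 0.00607 with it). Without Scl-/- replicate 1 it was -1.12 and called without the block too (adjusted p = 0.0365 with limma). Without the pair numbered 2 it was -0.73 and the call with the block was lost (adjusted p = 0.0628). E2f1 and E2f4 were chosen after their values were seen. E2f1, another activator, had 45.0, 46.1 and 47.2 CPM in WT and 38.0, 36.2 and 32.9 CPM in the Scl-/- libraries. The groups of E2f1 did not overlap, and the log2 fold change was -0.37 (adjusted p = 0.125 without and 0.0147 with the block), short of the fold threshold. E2f4, the E2F that binds promoters with p107 and p130 in quiescent cells, had 274, 268 and 354 CPM in WT and 336, 391 and 475 CPM in the Scl-/- libraries. It was higher in Scl-/- cells in every pair, by 0.30, 0.55 and 0.42, with a log2 fold change of 0.42 (adjusted p = 0.231 without and 0.00371 with the block), and the groups overlapped. E2f8, an atypical repressor, had the smallest difference, with 43.4, 44.0 and 45.0 CPM in WT and 42.6, 46.1 and 41.5 CPM in the Scl-/- libraries.

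Levels within the E2F family differed far more between genes than between genotypes. Per kb of exon in WT cells, E2f4 was at 150 ± 24.1 CPM per kb (SD, n = 3) and the next, E2f5, at 32.9 ± 2.28 CPM per kb (SD, n = 3). E2f6, E2f3, E2f1, E2f7 and E2f8 followed at 28.9, 19.5, 14.6, 9.65 and 8.11 CPM per kb, and E2f2 was lowest at 2.16 ± 0.279 CPM per kb (SD, n = 3). E2f5 and E2f6, and E2f7 and E2f8, did not differ beyond 2 SD, while E2f2 and E2f4 stood clear of their neighbours in this order. Rb1, Rbl1 and Rbl2 were at 7.27 ± 0.686, 5.80 ± 0.546 and 1.03 ± 0.244 CPM per kb (SD, n = 3).

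**Figure D2:**
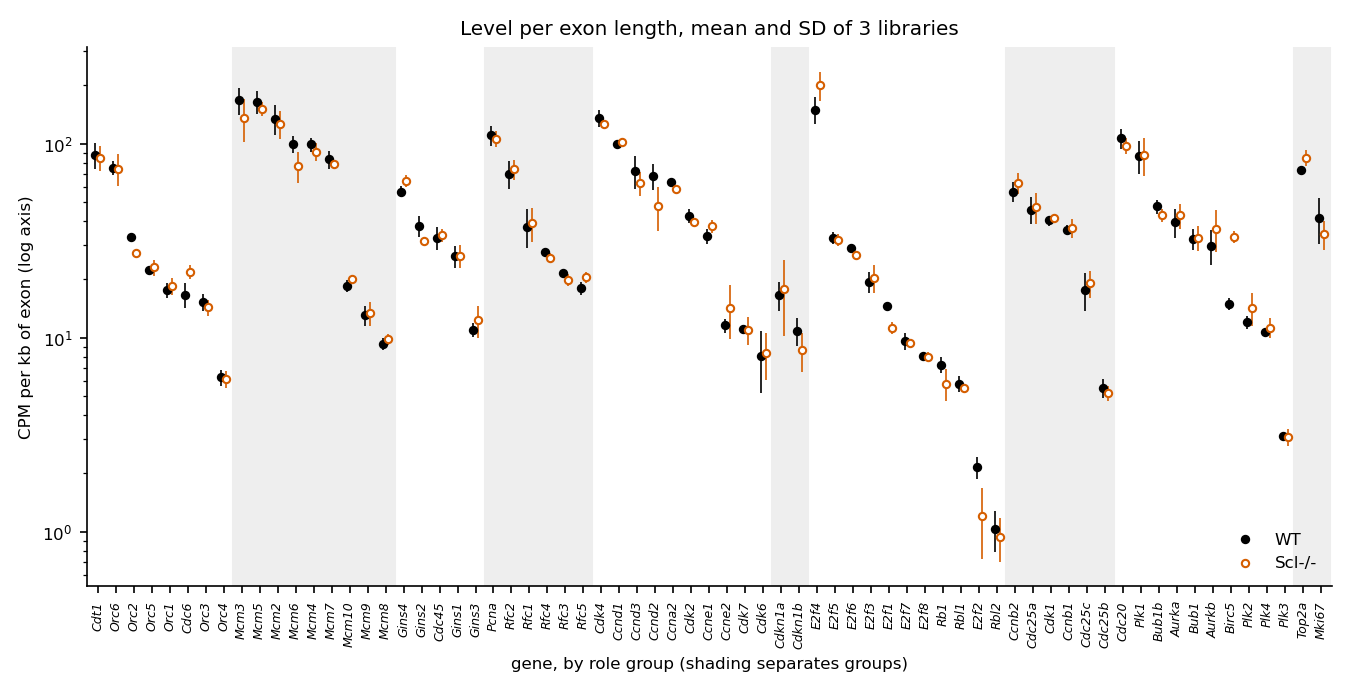
Level of each gene in CPM per kb of annotated exon (y axis, log scale), ordered within role groups (x axis; shading separates groups) by the WT mean; points are means and lines the SD of 3 libraries, black for WT and orange for Scl-/-. E2f4 is the highest of the E2F and RB group at 150 CPM per kb in WT and Rbl2 the lowest at 1.03, and most pairs of points lie side by side.

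The genes of mitotic entry gave 0 calls among 6 genes, and their log2 fold changes had a median of 0.04. Ccnb1, the main cyclin of CDK1, had the smallest difference of this group, with 142, 155 and 160 CPM in WT and 137, 170 and 160 CPM in the Scl-/- libraries. Its log2 fold change was 0.03 and its 95% interval with the block -0.12 to 0.17. Ccnb2 had the largest, with 75.8, 94.0 and 92.4 CPM in WT and 83.0, 105 and 102 CPM in the Scl-/- libraries. It was higher in every pair, by 0.13, 0.16 and 0.14, and the groups overlapped (adjusted p = 0.681 without and 0.125 with the block). Among the 10 mitotic kinase and checkpoint genes, 1 was called, Birc5, and Bub1, a spindle checkpoint kinase, had the smallest difference at 0.02 on the log2 scale.

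The proliferation marker Mki67 had 448, 510 and 293 CPM in WT and 367, 392 and 278 CPM in the Scl-/- libraries. It was lower in Scl-/- cells in every pair, but replicate 3 was low in both genotypes and the groups overlapped. Its log2 fold change of -0.25 had an adjusted p of 0.664 without and 0.0393 with the block and did not reach the fold threshold. Top2a, the topoisomerase that untangles chromosomes and the other proliferation marker, lies on chromosome 11 and was not called.

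Of the tested genes of chromosome 1, 681 of 789 were lower in Scl-/- cells, as were all 3 replication genes on it, and of those of chromosome 11, 1048 of 1211 were higher, as were all 4 genes on it. On the other chromosomes, the 62 genes had log2 fold changes with a median of -0.023, which ran from -0.84 for E2f2 to 0.42 for E2f4. The median was -0.32 for the 3 genes on chromosome 1, beside -0.29 for the 789 tested genes of that chromosome. For the 4 genes on chromosome 11 it was 0.34, beside 0.31 for the 1211 tested genes there. With the block, 0 of the 3 on chromosome 1 were called lower (20.0% of the tested genes of that chromosome), and 1 of the 4 on chromosome 11 was called higher (20.9%). With no fold threshold, 3 of 3 had an adjusted p under 0.05 on chromosome 1 (49.0% of its tested genes) and 3 of 4 on chromosome 11 (51.4%).

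Mcm3, a helicase subunit (chr1:20793055-20810359 of mm9), had 450, 462 and 596 CPM in WT and 315, 390 and 515 CPM in the Scl-/- libraries. It was lower in every pair, the groups overlapped, and the log2 fold change was -0.32 (adjusted p = 0.472 without and 0.0171 with the block). Mcm6, its partner in the hexamer (chr1:130228168-130256233 of mm9), had 400, 419 and 485 CPM in WT and 277, 332 and 397 CPM in the Scl-/- libraries. All WT libraries were above all Scl-/- libraries, and the log2 fold change was -0.38 (adjusted p = 0.234 without and 0.00587 with the block). Orc2, of the origin recognition complex (chr1:58519615-58561953 of mm9), had 134, 123 and 126 CPM in WT and 106, 106 and 104 CPM in the Scl-/- libraries. Its groups did not overlap either, and the log2 fold change was -0.27 (adjusted p = 0.15 without and 0.0149 with the block). The 20 nearest tested genes, 10 on each side, had medians of -0.18 around Mcm3, -0.46 around Mcm6 and -0.25 around Orc2.

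Cdc6, the loader of the MCM helicase (chr11:98769115-98785254 of mm9), had 83.9, 76.5 and 101 CPM in WT and 106, 113 and 125 CPM in the Scl-/- libraries. The groups did not overlap, and the log2 fold change was 0.40 (adjusted p = 0.168 without and 0.00646 with the block). Aurkb, the kinase of the chromosomal passenger complex (chr11:68859149-68865166 of mm9), had 77.8, 77.6 and 109 CPM in WT and 85.7, 100 and 137 CPM in the Scl-/- libraries. The pairs differed by 0.14, 0.37 and 0.33 and the groups overlapped (adjusted p = 0.566 without and 0.0225 with the block). Top2a (chr11:98854257-98885503 of mm9) had 660, 698 and 647 CPM in WT and 687, 825 and 794 CPM in the Scl-/- libraries, a log2 fold change of 0.20 (adjusted p = 0.387 without and 0.0709 with the block). Their 20 nearest tested genes had medians of 0.26, 0.27 and 0.28.

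Birc5, which encodes survivin, a chromosomal passenger protein that also inhibits apoptosis, rose in Scl-/- cells and lies on chromosome 11 (chr11:117710565-117717069 of mm9). It had 47.1, 53.9 and 52.7 CPM in the WT libraries and 104, 118 and 119 CPM in the Scl-/- libraries. Every Scl-/- library was above every WT library, and the pairs differed by 1.14, 1.12 and 1.16. Its mean was higher, from 51.2 ± 3.60 to 114 ± 8.17 CPM (SD, n = 3), a log2 fold change of 1.14 (standard error 0.10 without and 0.06 with the block, adjusted p = 0.00339 and 3.4e-05). The 20 nearest tested genes, between 116976482 and 118316309, were also shifted, with a median log2 fold change of 0.89, a range of -0.35 to 2.06, 19 higher and 12 called with the block. Birc5 ranked 7 among these 21 genes. Those above it were Tmc6 and Tmc8, at 1.56 and 2.06, with Gm11723, Gm11724, Gm11747 and C1qtnf1. The annotated spans of Tmc6 and Tmc8 overlap, Gm11723 and Gm11724 lie within Tmc8, and Gm11747 overlaps C1qtnf1. Syngr2 and Tk1 lie within the span of Afmid, which had a log2 fold change of 0.81, and Pgs1 overlaps Dnah17. Reads could be shared between these genes, so the rank and the calls among neighbours may count some reads more than once. Gm11723, Gm11724, C1qtnf1 and Gm11747 were also low, with WT means of 0.792, 0.915, 1.25 and 1.55 CPM. Tk1, the thymidine kinase of nucleotide salvage and a near neighbour (chr11:117676840-117687406), is itself a cell cycle gene and rose, with 40.4, 38.0 and 51.4 CPM in the WT libraries and 78.7, 77.5 and 97.2 CPM in the Scl-/- libraries and a log2 fold change of 0.96 (adjusted p = 0.0236 without and 9.8e-05 with the block). Its call without the block was lost without WT replicate 1 (adjusted p = 0.14 with limma), Scl-/- replicate 2 (0.0706) or Scl-/- replicate 3 (0.0716), and the call with the block was kept with each pair left out. Aurkb, which acts in the same passenger complex as survivin and lies elsewhere on the chromosome, had a log2 fold change of 0.28.

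**Figure D3:**
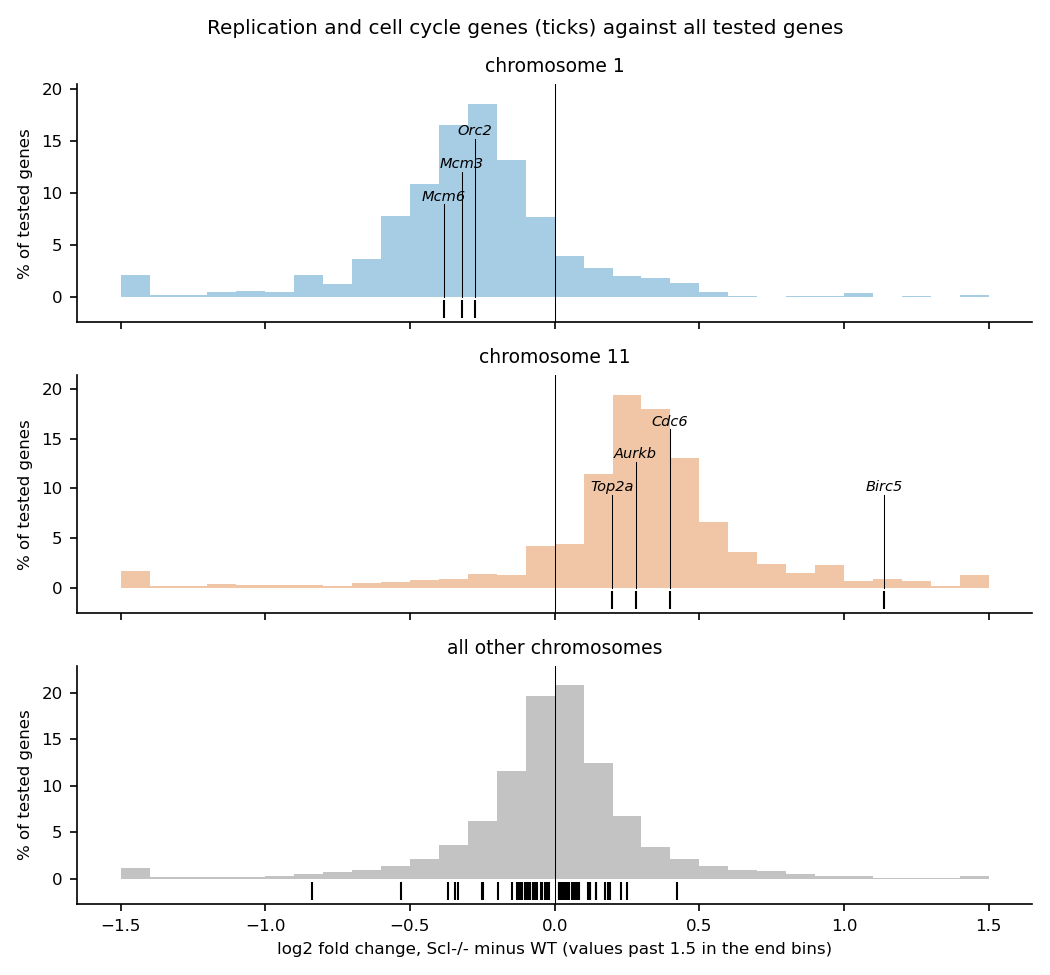
Share of tested genes (y axis, percent) in bins of log2 fold change (x axis, Scl-/- minus WT; values past 1.5 in the end bins) for chromosome 1, chromosome 11 and the other chromosomes, with the replication and cell cycle genes as ticks and, on the first 2, as named lines. Mcm3, Mcm6, Orc2, Cdc6, Aurkb and Top2a stand in the bulk of their chromosomes, with medians of -0.29 and 0.31, and Birc5 at 1.14 stands to the right of it.

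When the median deviation of each chromosome was removed from every library, the chromosome 1 genes had log2 fold changes of -0.04 for Mcm3, -0.10 for Mcm6 and 0.01 for Orc2. On the same scale Cdc6 had 0.09, Aurkb -0.03 and Top2a -0.11, and none of these 6 had an adjusted p under 0.05 with the block. Birc5 remained called at 0.83 (adjusted p = 3.4e-04 with the block). Centring takes out the median of the whole chromosome, and so leaves the larger local shift around Birc5 in place. The 20 tested genes nearest to it had a median of 0.89 before centring, so this call does not set Birc5 apart from them. With centring and the block, 3 of the 69 genes were called, the same as without centring (10.7% of all tested genes were called).

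**Figure D4:**
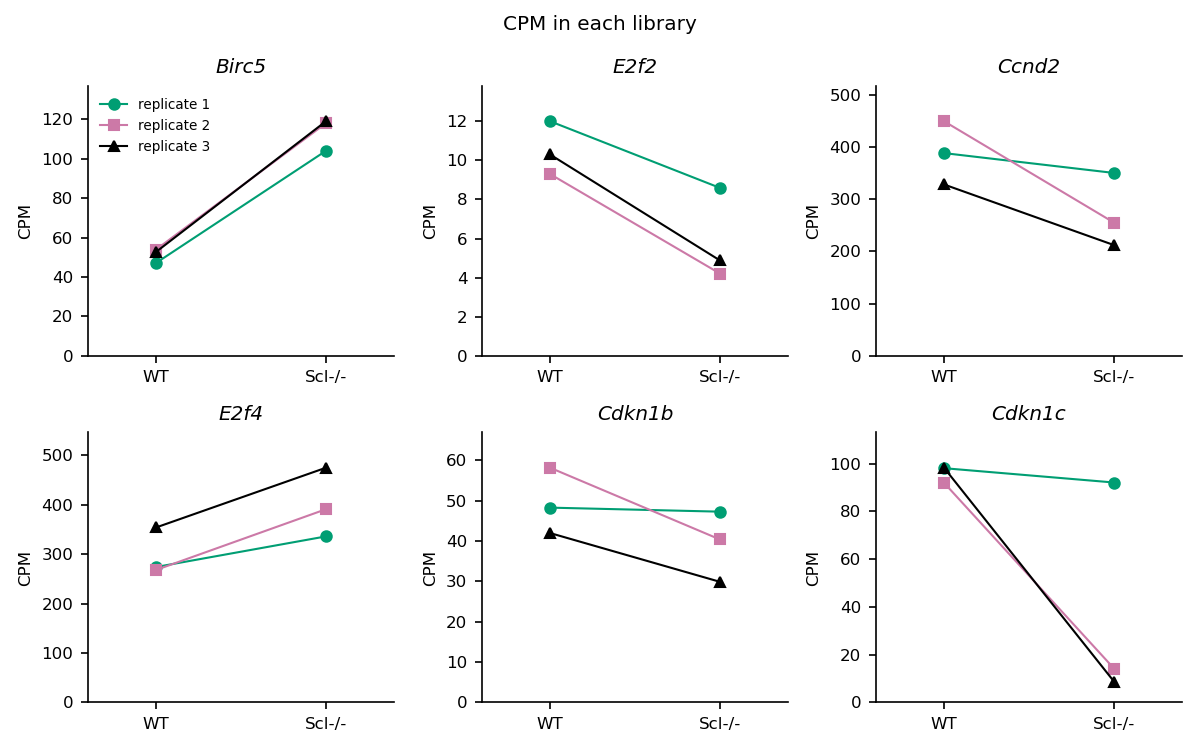
CPM (y axis, from 0) in the WT and Scl-/- libraries of Birc5, E2f2, Ccnd2, E2f4, Cdkn1b and Cdkn1c, with lines joining libraries of the same replicate number. Birc5 rises by about the same step in all 3 pairs, while Ccnd2, Cdkn1b and Cdkn1c differ little in the pair numbered 1, where Cdkn1c had 98.1 and 92.1 CPM.

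The genes varied between the replicate numbers as well. In the fit with the block, 26 of the 69 genes, or 37.7%, differed between the replicate numbers at an adjusted p under 0.05 (limma's F-test), a share near the 32.5% of all tested genes. Without the intensity trend the test gave 8 of 69 genes, or 11.6%, beside 15.7% of all tested genes. Averaged over both genotypes, all 6 of MCM2 to MCM7 were highest in replicate 3, with a median of 0.19 above the mean on the log2 scale, and adjusted p-values of 0.0133 for Mcm2, 0.0103 for Mcm3 and 0.0229 for Mcm6. The genes named next were chosen after their values were seen. Aurkb, Plk1 and Aurka were 0.35, 0.33 and 0.25 above their means in replicate 3. Mki67, Cdk6, Rfc1 and Cdc25a were 0.38, 0.52, 0.37 and 0.30 below theirs. Replicate 3 was high for the helicase and some mitotic kinases and low for other genes of the same phases, in both genotypes. Of the 26 genes, the 12 higher in replicate 3 had a median exon length of 2.33 kb and the 14 lower in it a median of 4.45 kb. Over the 69 genes, the deviation in replicate 3 and exon length had a Spearman correlation of -0.415, and over all 13991 tested genes a correlation of -0.222. With mean CPM in place of length it was 0.416 over the 69 genes and 0.0327 over all tested genes. All these points share the same 6 libraries, and the part of gene length or level in the differences between replicate numbers was not tested. A differentiation and any other step shared under a number cannot be told apart.

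**Figure D5:**
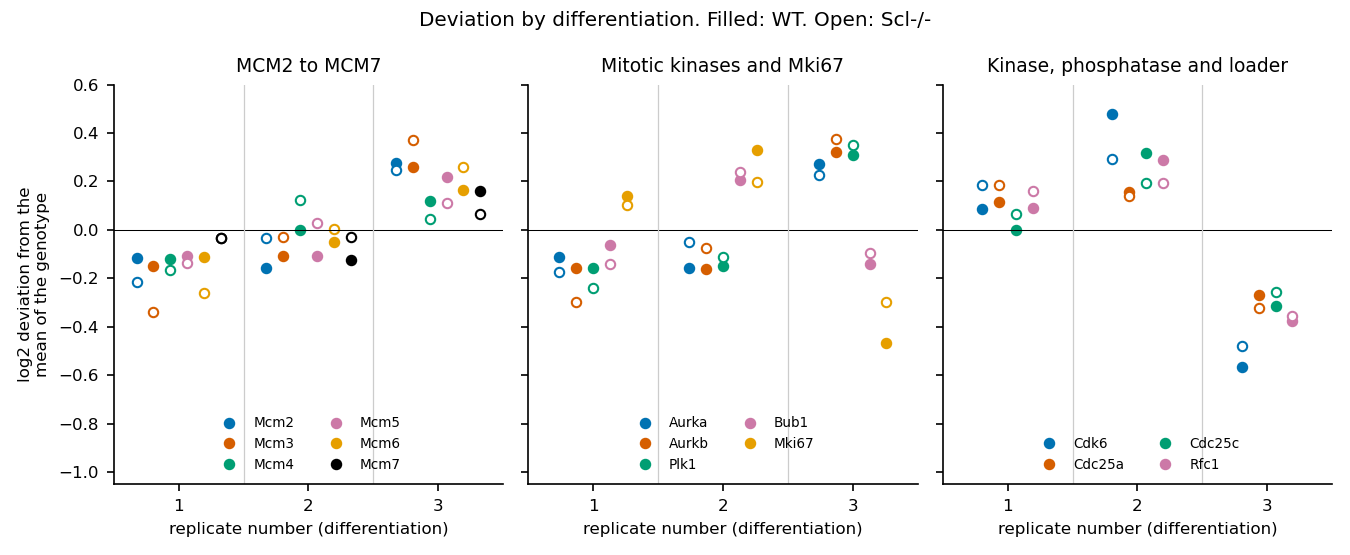
Log2 deviation of a library from the mean of its genotype (y axis) by replicate number (x axis), filled for WT and open for Scl-/-, 1 library a point. All MCM2 to MCM7 points of replicate 3 are above 0, with Aurka, Aurkb and Plk1, and those of Bub1, Mki67, Cdk6, Cdc25a, Cdc25c and Rfc1 are below it.

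A second list held 100 other replication and cell cycle genes (polymerases and fork proteins, origin firing, nucleotide supply, mitosis, transcription and checkpoints), all in the table. Their median log2 fold change was -0.017, and 1 was called without the block, Tk1 (2.36% of all tested genes were). With the block 2 were called higher, Tk1 and Pttg1 (6.04% of all tested genes), and 1 lower, Cdkn1c (6.60%). Of the 100, 4 lie on chromosome 1 with a median of -0.31 and 6 on chromosome 11 with a median of 0.33, and the other 90 had a median of -0.018. Pttg1, securin of the sister chromatids, lies on chromosome 11 and had 30.0, 41.5 and 37.4 CPM in WT and 34.7, 62.7 and 60.8 CPM in the Scl-/- libraries, a log2 fold change of 0.50 (adjusted p = 0.352 without and 0.0111 with the block). Centred by chromosome, its log2 fold change was 0.19 (adjusted p = 0.125 with the block), and uncentred the call was also lost without the pair numbered 2 (0.45, adjusted p = 0.101) or 3 (0.40, adjusted p = 0.0782).

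Cdkn1c, which encodes the CDK inhibitor p57 and is imprinted, had the largest difference of either list. It had 98.1, 92.0 and 98.3 CPM in the WT libraries and 92.1, 14.2 and 8.75 CPM in the Scl-/- libraries. Scl-/- replicate 1 was at the WT level and the other Scl-/- libraries far below it. The log2 fold change was -2.05 (standard error 0.75 without and 0.51 with the block, adjusted p = 0.215 without and 0.0231 with it). Without Scl-/- replicate 1 it was -3.05 and called without the block (adjusted p = 0.00847 with limma). With the block it was -1.75 without the pair numbered 2 and -1.37 without the pair numbered 3, and was not called (adjusted p = 0.158 and 0.14). Scl-/- replicate 1 was also the Scl-/- library nearest to WT for E2f2, Ccnd2 and Cdkn1b. In that library the pluripotency and epiblast markers summed to 90.1 CPM, beside 235 and 226 CPM in Scl-/- replicates 2 and 3. Pou5f1 made up most of these sums, at 71.6, 190 and 177 CPM. The FLK1+ mesoderm markers summed to 1557.7 CPM in Scl-/- replicate 1, beside 2005.5 and 1911.3 CPM. Among them, Mesp1 had 67.8, 178 and 176 CPM and Pdgfra 75.7, 191 and 156 CPM. Only Aplnr, at 173, 205 and 147 CPM, was not lowest in Scl-/- replicate 1. The blood and endothelial markers summed to 60.2 CPM in Scl-/- replicate 1, beside 27.3 and 61.1 CPM. The part of these markers in the differences of E2f2, Ccnd2, Cdkn1b and Cdkn1c was not tested.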

How the data were processed

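RNA-seq of day 3.5 FLK1+ EB cells was available from 3 WT and 3 Scl-/- libraries. The authors aligned reads to mm9 with TopHat2 2.0.8b, removed duplicate pairs, filtered on mapping quality with SAMtools 0.1.19 and normalised with edgeR (TMM), and deposited 1 table of CPM values. The counting tool and annotation are not given in the sources used here. The depth per library was read from the step between CPM values (100% of values whole within 0.1 read). No count test was run on these reads. The values are normalised, and limma 3.58.1 in R 4.3.3 was fitted to log2(CPM + 0.5) of the 13991 genes that reached 0.5 CPM in 3 or more libraries (lmFit, eBayes with an intensity trend), with p-values adjusted by the Benjamini-Hochberg method. The pseudocount understates changes of low genes. The fit had condition as its only term, and was repeated with the replicate number as a block. The numbers were taken to pair the libraries, as the series describes independent differentiations. Deviations of same-numbered libraries from their group means correlated at 0.59, 0.76 and 0.75, and those of others at -0.62 to -0.10. Deviations within a group cancel, so the negative values follow in part from the positive ones. Another step shared under a number cannot be told apart from the differentiation. The scripts were tested on simulated data.

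Positions and exon lengths came from GENCODE vM1 (mm9), which held all 14005 identifiers, and promoters from RefSeq (GRCm38.p6). Members and lists were chosen with earlier results of these data known. The text names every gene of the rule on chromosome 1 or 11, those called in either fit, the genes with the largest and smallest absolute fold change of each role group (mean of at least 1 CPM), and Mki67, Top2a and Pcna, and says where others were added. Of the second list it names those called. Alternatives were other pseudocounts and filters, median-ratio rescaling, no trend, chromosome centring, no fold threshold, and each library or pair left out. Figures were drawn with Matplotlib 3.10.9.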

Additional observations from a re-analysis of the deposited data

How the results depend on the processing

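The fit without the block called 1 of the 69 genes in all alternatives other than 3: 2 without Scl-/- replicate 1 (range over the 6 single libraries left out, 1 to 2), 3 with the replicate block, and 3 with the replicate block and chromosome centring. With the replicate block the count was 3. It was 5 without the pair numbered 1 (E2f4 and Cdkn1b added), 1 without the pair numbered 2 (E2f2 and Ccnd2 lost) and 2 without the pair numbered 3 (Ccnd2 lost), where 2062, 1122 and 1210 of the 13991 tested genes were called, against 1768 with all pairs. It was 2 without the intensity trend (Ccnd2 lost, 1647 genes called), 14 with no fold threshold and 1 with no replicate block. With no fold threshold it was 3 in place of 0 on chromosome 1 and 3 in place of 1 on chromosome 11. The genes that differed between replicate numbers were 26, or 8 without the intensity trend. The median log2 fold change of -0.022 ran from -0.060 without Scl-/- replicate 2 to 0.010 without Scl-/- replicate 3. E2F letters were in 18 promoters, or 11 on the forward strand only. Against the fit without the block, 340 of 345 values of the 23 genes named from the 69 by rule kept their side of the threshold and 5 passed it (E2f2 and Ccnd2). These do not include pairs left out with the block. The replicate block added the calls of E2f2 and Ccnd2, and of Pttg1 and Cdkn1c from the second list, and changed no other call of a gene named by rule from either list. Apart from the alternatives' own construction, the causes were not tested.

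With 3 libraries a group and 1 cell line a genotype, differences below the 95% intervals given could not be resolved. The p-values measure only the spread between replicate libraries of these lines. Rbl2, Plk3 and E2f2 had the lowest mean CPM of the 69 genes in WT cells.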
